A study of Mus musculus with 2 samples.

Results

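Collagens are the triple-helical proteins of the extracellular matrix, and in these data they were the 44 genes whose symbol in both deposited files had the form Col, a type number, a and a chain number, out of 55487 named records. All were found in both files, and 26 of them reached 1 TPM in at least 1 library. TPM is a transcript abundance scaled to transcript length and to the total of the library. The libraries came from LPC-HRas cells, labelled as mouse hepatocellular carcinoma cells from liver, that carried lentiviral shRFP as the control or shETV4, a hairpin against the transcription factor gene Etv4. There was 1 library per group, so every statement describes these 2 libraries, nothing was tested, and the depth behind each value is unknown. The sources used here do not say how many hairpins against Etv4 were used or whether the cells were a clone or a mixed culture.

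Each collagen molecule is wound from 3 chains whose sequence repeats a glycine followed by a pair of other residues, often proline. Fibrillar collagens align into the banded fibrils of connective tissue, type IV forms the sheet of basement membranes, and smaller classes build networks, decorate fibrils or cross the cell membrane. In the liver most fibrillar collagen is made by stellate cells and fibroblasts, and hepatic basement membrane collagen lies around vessels and bile ducts.

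Etv4 itself was at 73.2 TPM in the shRFP library and 16.2 TPM in the shETV4 library, 4.52-fold lower. Named genes at 1 TPM or more numbered 12456 with shRFP and 12281 with shETV4. The defining markers of mature hepatocytes were absent: none of 7 hepatocyte genes reached 1 TPM, their highest value was 0.22 TPM, and albumin (Alb) was listed at 0 in both libraries. Of 6 biliary and progenitor markers 3 were measured, all above 0 in difference and within 2-fold: Spp1, the osteopontin gene, at 423 and 476 TPM, Sox9, a progenitor transcription factor gene, at 28.04 and 45.4 TPM, and the keratin gene Krt19 at 27.5 and 36.3 TPM. The other 3, Krt7, Epcam and Afp, did not reach 1 TPM. Of 10 fibroblast and stellate cell markers 4 were measured, among them the platelet-derived growth factor receptor genes Pdgfra, at 17.5 and 23.4 TPM, and Pdgfrb, at 59.5 and 77.2 TPM. Lrat, a defining gene of quiescent stellate cells, was listed at 0 in both, and the fibroblast genes Lum and Thy1 were at or under 0.1 TPM. That list summed to 1341 and 766 TPM, most of it smooth muscle actin (Acta2, 1256 and 655 TPM). None of 5 endothelial markers reached 1 TPM (0.5 and 0.88 TPM in sum), and of 4 immune markers only Cd68 did, at 1.01 and 1.98 TPM, with Ptprc at 0 and 0.03 TPM. The part of other cell types in the collagen values was not tested, and in bulk RNA fewer cells of a type and less RNA per cell cannot be told apart.

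Collagen transcripts made up 0.152% of all TPM with shRFP and 0.185% with shETV4, or 1522 and 1850 TPM in sum, 1.22-fold more with shETV4. Col3a1, Col1a1, Col5a2, Col4a1 and Col5a1 were the 5 most abundant with shRFP and held 67.5% of the collagen TPM. With shETV4 Col6a1, a chain of the beaded filament type VI, took the place of the basement membrane gene Col4a1 among the leading 5. The fibrillar class held 59.1% of collagen TPM with shRFP and 59.5% with shETV4. The basement membrane class went from 22.9% to 18.8%, the network and beaded filament class from 12.2% to 16.9%, and the fibril-associated class from 5.71% to 4.65%. Transmembrane collagens held 0.0992% and 0.0903%, and the 2 unclassed ones less.

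**Figure D1:**
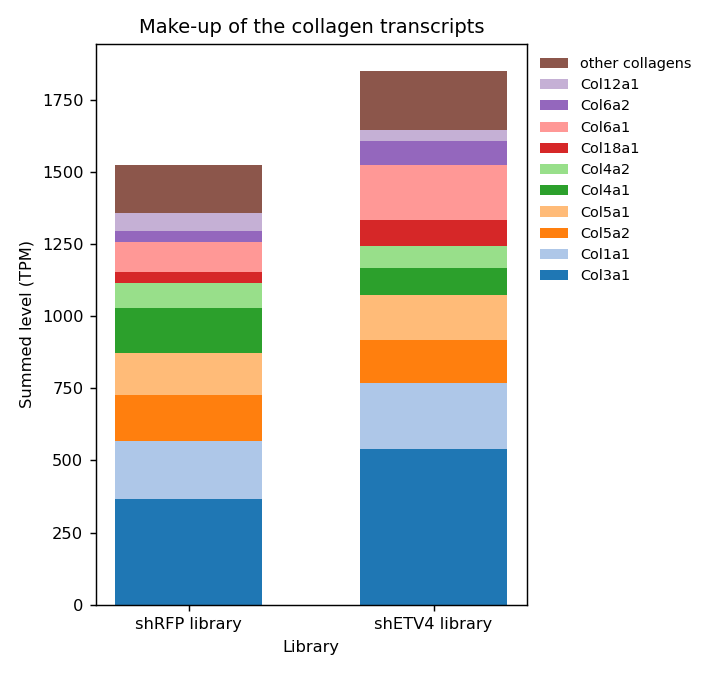
Summed TPM of the collagen genes in the shRFP and shETV4 libraries, 1 bar per library, stacked by gene for those that reached 60 TPM, with all other collagens in the top block. The bars end at 1522 and 1850 TPM; Col3a1 is the largest block in both, Col4a1 is smaller with shETV4 and Col6a1 is larger.

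Differences are log2(TPM + 1) in shETV4 minus the same in shRFP, and 2-fold or more on this scale counted as a call. The added 1 shrinks the differences of genes near or under 1 TPM. Folds given beside levels are plain ratios of TPM. Of the 26 measured collagens 4 were called higher (Col15a1, Col5a3, Col18a1 and Col6a2), 1 was called lower (Col8a1) and 21 lay within 2-fold. That is 15.4% higher and 3.85% lower, where 3.39% of all 12968 measured genes were called higher and 7.06% lower. The median collagen difference was 0.14, against -0.10 over all measured genes, and 16 of 26 collagens (61.5%) lay above 0, against 41.6% of all genes. Col24a1 and Col20a1, both among the 16, reached 1 TPM only with shETV4, so the filter fixed their direction. The called genes belonged to the fibrillar class (Col5a3), the basement membrane class (Col15a1 and Col18a1) and the network and beaded filament class (Col6a2 and Col8a1).

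**Figure D2:**
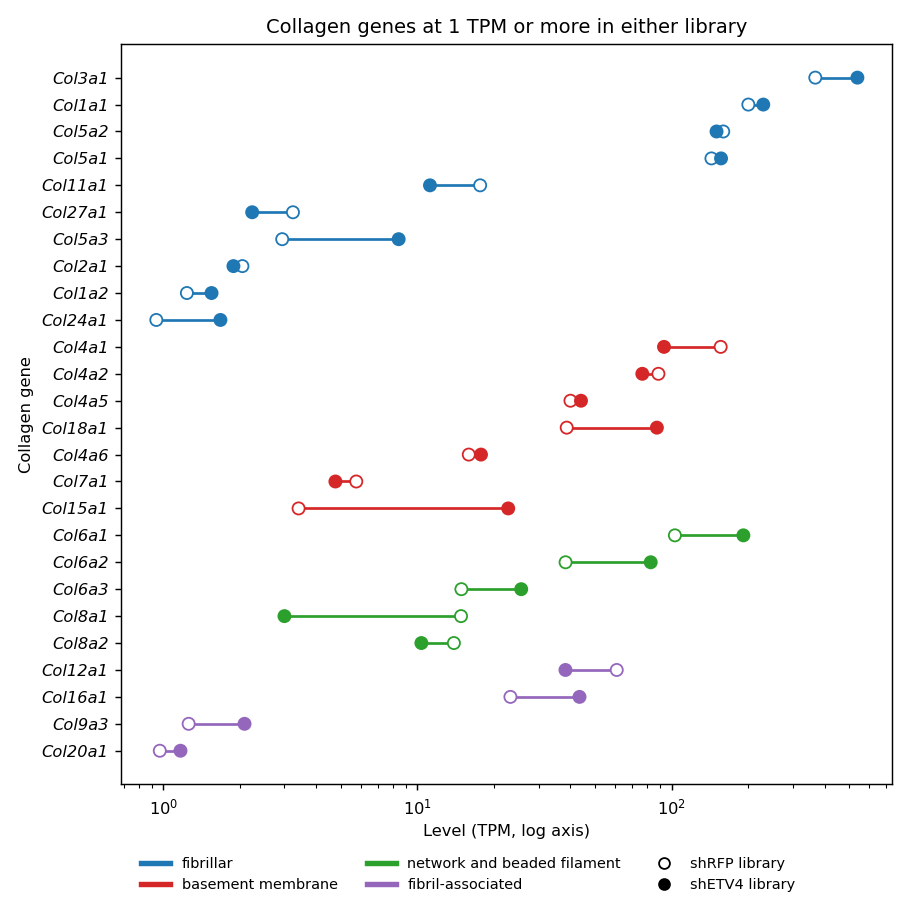
Level in TPM on a log axis of each collagen gene that reached 1 TPM, grouped and coloured by class, with an open circle for the shRFP library and a filled circle for the shETV4 library, 1 value each. The longest lines are Col15a1, from 3.41 to 22.8 TPM, and Col8a1, from 14.9 to 3 TPM.

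Promoter windows are shown for the collagens at either end of the differences, for the 3 measured chains of type VI, which were all higher, and for the head-to-head pair Col4a1 and Col4a2. Each runs from 250 bases before to 50 bases after a RefSeq start on GRCm38.p6, is written 5′ to 3′ on the gene's strand, and has in capitals the PEA3 element AGGAAG, on either strand. The same search for the ETS motif CCGGAAG and for the interferon-stimulated response element (GAAA, any 2 bases, GAAA) found no match in any window below. Col15a1 is at chr4:47207762-47208061 (plus strand), Col8a1 at chr16:57754688-57754987 (minus), Col6a1 at chr10:76725995-76726294 (minus), Col6a2 at chr10:76623581-76623880 (minus), Col6a3 at chr1:90843922-90844221 (minus), Col4a1 at chr8:11312777-11313076 (minus) and Col4a2 at chr8:11312555-11312854 (plus).
Col15a1: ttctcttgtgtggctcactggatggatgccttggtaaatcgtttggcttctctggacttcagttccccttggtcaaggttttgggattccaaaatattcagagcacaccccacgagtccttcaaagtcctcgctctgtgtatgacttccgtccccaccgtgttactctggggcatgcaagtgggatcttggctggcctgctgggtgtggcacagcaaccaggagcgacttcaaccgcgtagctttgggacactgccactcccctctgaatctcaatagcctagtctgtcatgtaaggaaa
Col8a1: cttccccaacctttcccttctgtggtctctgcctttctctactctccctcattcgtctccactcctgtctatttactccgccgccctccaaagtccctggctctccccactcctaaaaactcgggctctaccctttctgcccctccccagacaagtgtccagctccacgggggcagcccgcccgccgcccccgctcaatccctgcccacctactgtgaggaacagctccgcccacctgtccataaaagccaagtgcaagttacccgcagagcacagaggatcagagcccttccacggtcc
Col6a1: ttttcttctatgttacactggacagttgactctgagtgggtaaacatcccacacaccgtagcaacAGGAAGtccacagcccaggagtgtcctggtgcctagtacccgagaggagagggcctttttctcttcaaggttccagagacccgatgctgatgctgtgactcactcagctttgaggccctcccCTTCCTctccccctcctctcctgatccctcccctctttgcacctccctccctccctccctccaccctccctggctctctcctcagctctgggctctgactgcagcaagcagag
Col6a2: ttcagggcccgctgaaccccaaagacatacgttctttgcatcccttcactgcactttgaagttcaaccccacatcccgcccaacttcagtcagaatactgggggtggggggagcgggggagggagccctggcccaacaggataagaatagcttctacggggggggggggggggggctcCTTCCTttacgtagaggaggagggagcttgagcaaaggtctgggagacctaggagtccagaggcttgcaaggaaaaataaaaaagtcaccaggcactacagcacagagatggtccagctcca
Col6a3: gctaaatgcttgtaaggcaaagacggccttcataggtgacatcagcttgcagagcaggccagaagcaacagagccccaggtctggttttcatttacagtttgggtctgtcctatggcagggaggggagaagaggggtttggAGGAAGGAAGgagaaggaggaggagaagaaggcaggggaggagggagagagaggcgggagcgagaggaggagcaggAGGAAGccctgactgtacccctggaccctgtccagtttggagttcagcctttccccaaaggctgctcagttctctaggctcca
Col4a1: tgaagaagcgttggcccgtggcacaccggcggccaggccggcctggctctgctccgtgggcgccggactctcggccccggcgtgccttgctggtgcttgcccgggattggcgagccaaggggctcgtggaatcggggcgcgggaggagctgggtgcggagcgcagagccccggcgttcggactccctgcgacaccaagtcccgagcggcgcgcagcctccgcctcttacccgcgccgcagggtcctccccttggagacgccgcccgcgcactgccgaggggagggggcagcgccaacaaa
Col4a2: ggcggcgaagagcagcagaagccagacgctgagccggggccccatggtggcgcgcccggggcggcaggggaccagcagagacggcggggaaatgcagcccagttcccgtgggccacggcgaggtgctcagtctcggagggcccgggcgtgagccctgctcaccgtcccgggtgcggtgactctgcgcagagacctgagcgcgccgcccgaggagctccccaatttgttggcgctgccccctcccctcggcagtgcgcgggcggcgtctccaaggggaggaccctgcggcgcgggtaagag

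All 3 type VI windows held AGGAAG. With position 1 at the start of transcription, its first base lay at -185 and -63 in Col6a1, at -72 in Col6a2 and at -109, -105 and -33 in Col6a3, the first pair of matches there overlapping; a second RefSeq start of Col6a2 had a match at -140. Col15a1, Col8a1, Col4a1, Col4a2 and the called gene Col5a3 had none, and 1 of the windows of Col18a1 had a match at -169. The other measured collagens with a match were Col24a1, Col4a6, Col5a1 and Col27a1, with differences of 0.47, 0.15, 0.12 and -0.39. The element is common: 35.4% of all 32851 promoter windows of this length held it. Counted by gene, with a match in any window of the gene, 8 of the 21 measured collagens with a window (38.1%) did. The units of these shares thus differ. The ETS motif CCGGAAG was in 8.86% of all windows and the interferon element in 3.44%, and neither was in a window of these 21 collagens. A match is a string of letters, not a measured binding site.

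Fibrillar collagens were the most abundant class, and all 4 of them above 100 TPM lay within 2-fold. All but Col11a2 of the 11 genes were measured, 6 lay above 0 and 4 below, and the median difference was 0.16. That median was 0.04 after GC adjustment and 0.01 with length adjusted for as well or with GC content of the longest coding transcript. The length used was the median over all annotated transcripts of a gene, short ones included. For Col1a1 it was 428 bases, against 5930 for the longest coding transcript. Col3a1 (ENSMUSG00000026043), the single chain of type III, was at 368 TPM in the control and 538 TPM after the knockdown hairpin, 1.46-fold higher and within 2-fold. It was the most abundant collagen in both libraries. Col1a1, which encodes the alpha 1 chain of type I, was at 200.4 and 229 TPM.

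Col1a2, which encodes the partner chain of type I, was at only 1.24 and 1.55 TPM. The usual type I molecule contains chains of both genes, yet the level of Col1a1 was 162-fold that of Col1a2 with shRFP and 148-fold with shETV4. The imbalance was thus present in both libraries. Col1a1 ranked 744 among named genes by TPM in the shRFP library and Col1a2 ranked 12114.

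Type V collagen, which nucleates fibrils and sets their width, is made from the products of Col5a1, Col5a2 and Col5a3. Col5a1 was at 143 and 156 TPM and Col5a2 at 159.6 and 150.2 TPM, differences of 0.12 and -0.09. Col5a3 (ENSMUSG00000004098, chromosome 9, 20770050 to 20815067, minus strand of GRCm38), the scarce chain, was at 2.94 TPM in the control library and 8.44 TPM with shETV4. It was 2.87-fold higher, a difference of 1.26, and ranked 139 from the top among 11561 measured protein-coding genes. The ratio of Col5a1 to Col5a3 went from 48.8 to 18.5, so Col5a3 was still the minor chain with shETV4. The call rests on a low control level: with a pseudocount of 5 the difference was 0.76, inside 2-fold.

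The other measured fibrillar genes were at lower levels. Col11a1, a chain of the cartilage fibril collagen type XI that can join type V, was at 17.7 and 11.2 TPM, 1.58-fold lower and within 2-fold. Col27a1 was at 3.24 and 2.24 TPM, and Col2a1, the main cartilage collagen, at 2.05 and 1.89 TPM. Col24a1 went the other way, at 0.94 and 1.68 TPM, and counted as measured only through the shETV4 library.

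In the basement membrane class both multiplexins were called higher and no type IV gene was called. Of 9 genes 7 were measured, with a median difference of 0.13 (0.07 with GC content of the longest coding transcript adjusted for) and a range from -0.73 to 2.43. The 6 type IV genes summed to 301 and 232 TPM, a ratio of 0.772, and most of that fall was in Col4a1. Of the 4 measured type IV genes 2 lay above 0 and 2 below. The multiplexin genes Col15a1 and Col18a1 summed to 42.1 and 110.3 TPM, 2.62-fold more.

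Col15a1 (ENSMUSG00000028339, chromosome 4, 47208161 to 47313167, plus strand of GRCm38) encodes type XV collagen, a proteoglycan that links basement membranes to the fibrils beneath. It was at 3.41 TPM in the control library and 22.8 TPM with shETV4, 6.68-fold higher, and its difference of 2.43 was the largest of any collagen in either direction. Among measured protein-coding genes it ranked 9 from the top. Col18a1 (ENSMUSG00000001435, chromosome 10, 77052178 to 77166548, minus strand) encodes type XVIII, the related collagen from which endostatin is cleaved, and was at 38.7 and 87.5 TPM, 2.26-fold higher with a difference of 1.16. Col18a1 was 11.3 times as abundant as Col15a1 with shRFP and 3.84 times with shETV4. Col15a1 stayed past 2-fold under all alternatives tried, several of which could not have changed this. Col18a1 came to 0.97 when GC content and length were adjusted for together.

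Type IV chains are encoded by gene pairs that lie head to head. Col4a1 and Col4a2, whose products form the common type IV network, meet on chromosome 8, where their gene models overlap by 22 bases and their promoter windows share 78 bases. Col4a1 was at 156 TPM in the control library and 93.4 TPM with shETV4, 1.67-fold lower, and Col4a2 at 88.8 and 76.7 TPM, 1.16-fold lower. Both lay within 2-fold, and the ratio of Col4a1 to Col4a2 went from 1.76 to 1.22. Reads were not stated to be counted by strand. In the annotation used here, 0.295% and 0.982% of the exonic bases of these genes lie in exons of another gene. Any effect of shared exons on the values was not tested.

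Col4a5 and Col4a6, the X-linked pair of the specialised type IV networks, differed little. Col4a5 was at 40.0 and 44.0 TPM and Col4a6 at 15.9 and 17.8 TPM, and their ratio was 2.51 and 2.47. Their gene models lie 1.31 kb apart. Col4a3 and Col4a4, the pair of the mature kidney glomerulus, were at or under 0.2 TPM in both libraries. Col7a1, the collagen of the fibrils that anchor skin basement membrane, was at 5.75 and 4.76 TPM.

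Type VI collagen forms beaded filaments close to the cell surface, and its 3 classical chains were all higher with shETV4 by 1.72-fold to 2.16-fold. After GC adjustment Col6a1, Col6a2 and Col6a3 were at 0.74, 0.93 and 0.68. These shifts were too small to reverse the direction, so they are no check of it. Col6a1 was at 103 TPM in the control library and 192 TPM with shETV4, 1.86-fold higher. Col6a2 (ENSMUSG00000020241, chromosome 10, 76595762 to 76623630, minus strand) was at 38.3 and 82.8 TPM, 2.16-fold higher and the single type VI gene called. Col6a3, the large chain, was at 14.9 and 25.6 TPM, 1.72-fold higher. Their differences were 0.89, 1.09 and 0.74, and the summed type VI level went from 156 to 300.01 TPM. The order of the chains by level was the same in both libraries, with Col6a1 at 2.69 and 2.31 times Col6a2. The alternative chain genes Col6a4, Col6a5 and Col6a6 were at or under 0.06 TPM. The call of Col6a2 sat near the threshold, at 0.93 after GC adjustment.

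Type VIII, a short-chain collagen of vessel walls and the cornea that forms hexagonal networks, differed in the opposite direction. Col8a1 (ENSMUSG00000068196, chromosome 16, 57624258 to 57754737, minus strand) was at 14.9 TPM in the control library and 3 TPM with shETV4, 4.95-fold lower. Its difference of -1.99 was the lowest of any collagen and ranked 29 from the bottom among measured protein-coding genes. The shETV4 level was low, and with a pseudocount of 5 the difference was -1.31. Col8a2, the other chain, was at 13.9 and 10.4 TPM, 1.34-fold lower and within 2-fold. The chains were thus near parity with shRFP, at a Col8a1 to Col8a2 ratio of 1.07, and at 0.289 with shETV4. Col10a1, the short-chain collagen of hypertrophic cartilage, was listed at 0 in both libraries. Because the class joins type VI and type VIII, its median difference of 0.74 covers a spread from -1.99 to 1.09; with the genes under 1 TPM included it was 0.03.

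Fibril-associated collagens bind to the surface of fibrils, and 4 of 9 were measured, none past 2-fold. Col12a1, which bridges type I fibrils in tissue under tension, was at 60.9 and 38.2 TPM, 1.59-fold lower. Col16a1, found at the rim of fibrils and near basement membranes, was 1.87-fold higher, at 23.2 and 43.4 TPM. The class thus summed to nearly the same level, 86.9 and 86.0 TPM. Col9a3, a type IX chain, was at 1.26 and 2.09 TPM and Col20a1 at 0.97 and 1.17 TPM.

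The remaining 18 collagens stayed under 1 TPM in both libraries, with a maximum of 0.89 TPM (Col25a1, shETV4). They were the 4 transmembrane genes Col13a1, Col17a1, Col23a1 and Col25a1, the unclassed Col26a1 and Col28a1, the fibrillar Col11a2, the type IV genes Col4a3 and Col4a4, the network genes Col10a1, Col6a4, Col6a5 and Col6a6, and the fibril-associated Col9a1, Col9a2, Col14a1, Col19a1 and Col22a1. Of these, Col10a1, Col6a6, Col9a1, Col19a1 and Col13a1 were listed at 0 in both. No fold is given for them.

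**Figure D3:**
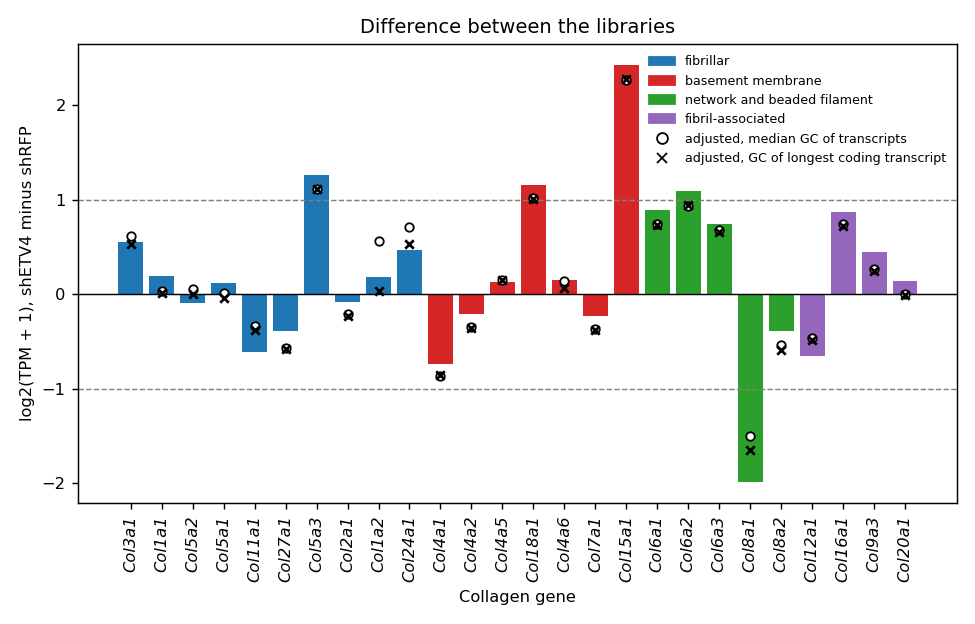
Difference in log2(TPM + 1), shETV4 minus shRFP, of the 26 collagens at 1 TPM or more (bars, coloured by class), with the values after the 2 GC adjustments as circles and crosses and dashed lines at 2-fold. Col15a1, Col5a3 and Col18a1 end above the upper line before and after both adjustments, Col6a2 only before them, and Col8a1 ends below the lower line in all 3.

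Base composition moved with the difference across all genes. The rank correlation of the difference with the GC content of the longest coding transcript was 0.58 over 11533 genes, which are not independent replicates, and 0.25 over the 26 collagens. Collagens were GC-rich, with a median of 56.5% against 50.3% for all measured genes, and Col8a1 was the poorest of them at 46.8%. After the running median over GC content was subtracted, with the median GC of all transcripts of a gene, 3 collagens were above and 1 was below 2-fold, against a background of 4% higher and 2.32% lower, and the collagen median was 0.10, against -0.00039 for all genes. Over all genes that adjustment turned the balance from 439 higher and 916 lower to 518 higher and 300 lower. With the GC content of the longest coding transcript, an alternative chosen after the data were seen, the collagen median was 0.02, against 0.00021 for all genes, and the same 3 genes above and 1 below passed, where 2.88% of all genes were higher and 1.34% lower. The collagen median was thus close to that of all genes under this adjustment. Col8a1 was then at -1.65, Col15a1 at 2.28, Col5a3 at 1.11, Col18a1 at 1.01 and Col4a1 at -0.86.

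**Figure D4:**
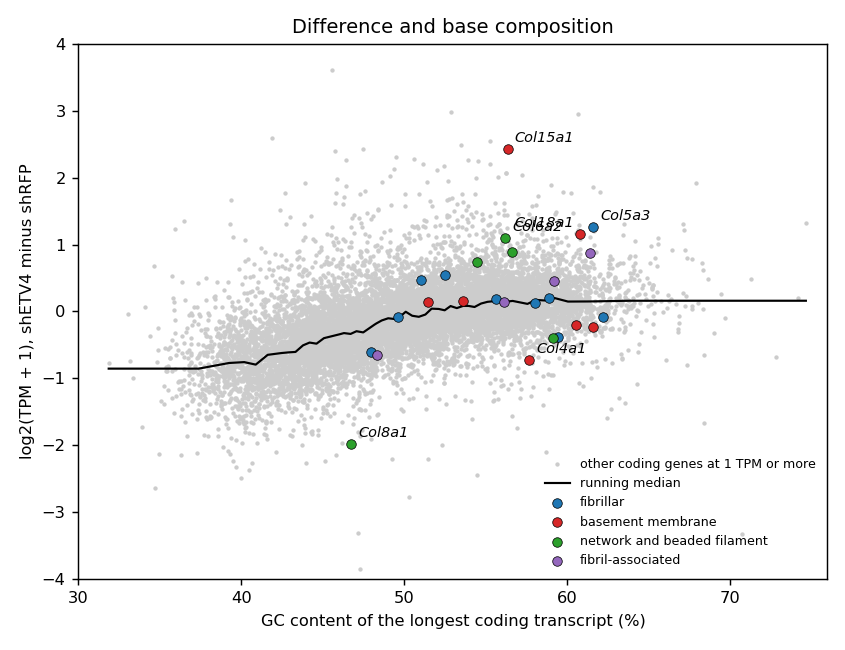
Difference in log2(TPM + 1), shETV4 minus shRFP, against the GC content of the longest coding transcript for 11533 genes at 1 TPM or more (grey), with the running median (line) and the 26 collagens coloured by class; 3 genes lie outside the vertical axis. Col15a1 and Col8a1 lie far above and below the line, while Col1a1 and Col5a2 lie close to it.

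The enzymes, carriers, receptors and partners of collagens were read from 4 lists. Of 58 listed genes 49 were measured, none was called higher and 3 were called lower, with a median difference of 0.09 and a range from -1.75 to 0.69. Over all measured genes 3.39% were higher and 7.06% lower, with a median of -0.10, so the 6.12% of listed genes called lower is close to the share of all genes. In synthesis, folding and secretion 22 of 23 were measured. P3h2, a prolyl 3-hydroxylase that acts on type IV chains, was 2.85-fold lower at 18.7 and 6.56 TPM, and Mia3, which loads procollagen into large secretory carriers, 2.11-fold lower at 68.7 and 32.6 TPM. Of the exonic bases of P3h2, 28.4% lie in exons of another gene, and any effect on its value was not tested. Mia3 was at -0.67 after GC adjustment, inside 2-fold. The highest difference there was that of P4hb, a subunit of prolyl 4-hydroxylase, at 643 and 897 TPM and within 2-fold.

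Of 13 processing and cross-linking genes 10 were measured, and Lox, the cross-linking lysyl oxidase, was the 1 called, 3.74-fold lower at 22.6 and 6.04 TPM. Its relative Loxl3 had the highest difference of that list, 0.66, at 10.2 and 16.6 TPM. None of the 6 measured of 10 collagen receptor and uptake genes was called: Ddr1 was at 53.1 and 74.2 TPM, and Ddr2, the receptor for fibrillar collagen in mesenchymal cells, at 31.6 and 15.7 TPM, a difference of -0.97. Among 11 measured of 12 binding partners none was called either. After GC adjustment Dcn, a fibril-binding proteoglycan gene at 6.81 and 9.76 TPM, and the receptor gene Itga1, at 1.39 and 2.36 TPM, came past 2-fold upward, at 1.11 and 1.07. Of the 49 measured listed genes 2 were then past 2-fold upward and 2 downward, where 4% of all genes were higher and 2.32% lower. Fmod, which binds type I fibrils, was at 18.2 and 29.9 TPM and Lama5, a laminin chain of basement membranes, at 78.5 and 46.5 TPM.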

How the data were processed

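RNA was measured in 2 libraries of LPC-HRas cells, 1 with shRFP and 1 with shETV4, grouped by their treatment labels. Values were deposited by the authors as TPM, 1 per gene and library with 2 decimals; the headers name no unit, and the TPM totals of 999999.77 and 999870.3 showed it. HISAT2, RSEM and GRCm38.p4 are named in the submitters' processing notes, without roles or versions. The sources used here state no annotation, strand setting or filter. TPM keeps no depth, so no counting interval is given. The 153 records without a symbol were left out.

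A gene was measured at 1 TPM or more in either library, with a pseudocount of 1. Differences, counts and medians were computed over all named genes with Python 3.11.15, numpy 2.4.6 and pandas 2.3.3 and drawn with matplotlib 3.10.9. Only the 2-fold calls, the adjustment for GC content alone and the rescaling of the libraries were checked on simulated data, with an assumed noise. GENCODE M21 (GRCm38) gave coordinates, GC content and length for all 44 collagens, and RefSeq (GRCm38.p6) gave promoter windows for 21 of the 26 measured. The GC adjustment subtracted the running median over 50 bins. Every measured collagen was named; other genes were named where called or, failing that, largest in a direction at 5 TPM or more. The printed windows were chosen after the values were seen. Members and lists were chosen with earlier results of these data known. Protein sequences were not used here.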

Additional observations from a re-analysis of the deposited data

How the results depend on the processing

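With 1 library per group there was no replicate to leave out, and no paired analysis was possible because each group has a single library. Col15a1 and Col8a1 kept their calls under all 11 alternatives, with ranges of 1.72 to 2.70 and -2.27 to -1.31. Several alternatives could not have removed these calls: the 1.5-fold threshold, the changed filters on low values and the pseudocount of 0.1. With GC content (20 bins) and median transcript length (5 bins) adjusted for together, 2 collagens and 504 genes in all were called higher. At a threshold of 1.5-fold 7 were higher and 4 lower, and at 3-fold 1 was higher. The collagen median was 0.028 with no filter on low values and 0.024 with GC content of the longest coding transcript; in the other settings it lay between 0.10 and 0.22. A median was counted as moved at a change over 0.1. Scales that set the median ratio to 1 or a trimmed mean log ratio (30% of the ratios and 5% of the mean levels cut from either tail) to 0 changed no collagen call. Col5a2, Col5a1 and Col20a1, close to 0, kept their sign in 8 of 11, 10 of 11 and 8 of 10, and every change came with a GC adjustment. Pseudocounts, filters and thresholds cannot change a sign, so these counts do not measure robustness. Over all genes, 439 higher and 916 lower became 674 and 1459 with pseudocount 0.1, 167 and 267 with pseudocount 5, 1117 and 2591 at 1.5-fold and 162 and 162 at 3-fold. At 5 TPM or more 252 were higher and 690 lower. The counts were 518 and 300 with adjustment for GC content, 504 and 308 for GC content and length, and 332 and 155 for GC content of the longest coding transcript. The unknown depth limits the values under about 5 TPM most, those of Col5a3 and Col15a1 with shRFP and of Col8a1 with shETV4 included.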

Other observations

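Col6a2, Col6a1 and Col18a1, all higher with shETV4, lie on the same strand within 571 kb of chromosome 10 (76595762 to 77166548, GRCm38). This stretch was looked at after the values were seen. Of the 9 other annotated genes in it 2 were measured, and both were lower and within 2-fold: Pcbp3, a poly(C)-binding protein gene, at 20.1 and 14.3 TPM, and Slc19a1, the reduced folate carrier gene, at 31.6 and 27.6 TPM.

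Col3a1 and Col5a2 lie 24.6 kb apart on chromosome 1, tail to tail, and their ratio was 2.30 with shRFP and 3.58 with shETV4. The ratio of Col3a1 to Col1a1 was 1.83 and 2.35. All 3 genes lay within 2-fold.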
